A study of Mus musculus with 15 samples.

Results

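The comparison of third-round with second-round primary tumours concerns 6 of the 15 profiled organoid lines, the 3 lines labelled Primary3 and the 3 labelled Primary2, and was made over all regions of the deposited count table. The lines were chosen by the round number and origin in their titles and not by any measured value. All 15 lines are mouse colon cancer organoids, three-dimensional cultures of tumour epithelial cells. They share the genotype label AKP, which the labels do not spell out, and the recipient mice were C57Bl6. Organoids were transplanted into the colon, lines were re-derived from primary tumours or liver metastases, and the cycle was repeated. The groups Primary2 and Primary3 came from tumours of the colon in rounds 2 and 3. Met1, Met2 and Met3 came from liver metastases of rounds 1, 2 and 3, and every group has 3 lines. No agent is listed for any group. The sources used here give neither the descent of each line nor whether lines of a group came from separate mice, so the p-values speak only to the spread between these lines, which may be technical.

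The assay was ATAC-seq, in which the Tn5 transposase inserts sequencing adapters into DNA that is not wrapped tightly by nucleosomes, so that the number of reads over a region follows how accessible it is. Accessible regions are mostly promoters and enhancers, and the set of open enhancers is characteristic of a cell's lineage and state. Because every copy of a locus can be cut, the same count also follows the number of DNA copies, and tumour lines propagated for long can gain or lose chromosomes. Retransplanted primary lines were the controls of the design, and the comparison gives the difference between these controls after 1 further round. Regions are given by the name and the mm9 coordinates of the deposited table. No annotation of that build was used here, so regions carry no gene names, no sequences are shown and the colon epithelial identity of the lines was not checked against marker genes.

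Depth was uneven in the third round. Counts in regions summed to between 1235330 and 1823141 in the Primary2 lines, but to 3051139, 285633 and 5916109 in Primary3 replicates 1, 2 and 3. The median region held 4 counts in Primary3 replicate 2, where 23.3% of regions were at 0, against at most 2.89% in the other 5 primary lines, and 1 count there was worth 3.19 CPM, where CPM is the count relative to the library total after TMM scaling, times 1e+06. Values of that line are therefore coarse, and counts of calls are given with and without it where it moved them.

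Across the genome, Primary3 replicates 1 and 3 resembled second-round primary lines about as much as second-round lines resembled each other. Pearson correlations of log2 CPM over 39952 tested regions were 0.881, 0.855 and 0.842 between pairs of Primary2 lines. Between Primary2 lines and Primary3 replicates 1 and 3 they ran from 0.848 to 0.889. The closest pair of primary lines was Primary3 replicates 1 and 3, at 0.930. Primary3 replicate 2 correlated with Primary2 lines at 0.688 to 0.700 and with its own group at 0.716 and 0.727. Correlation depends on depth, so every library was also thinned at random to 283950 counts, the depth of that line over tested regions.

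At this common depth the Primary2 pairs stood at 0.768 to 0.789 and the pairs of Primary2 with Primary3 replicates 1 and 3 at 0.772 to 0.785, while Primary3 replicates 1 and 3 still stood at 0.822. Primary3 replicate 2 remained lower, at 0.721 to 0.741 with Primary2 and 0.746 and 0.760 with its own group. It lay nearer to each of the other Primary3 lines than to any Primary2 line at both depths. Pairs of Primary3 and Met3 lines without Primary3 replicate 2 lay lower, from 0.675 to 0.710 at the common depth. These are correlations across regions, which are not independent replicates, and the pairs share lines, so no test is attached. The spread among Primary2 lines, as a common biological coefficient of variation, was 0.249. In Primary3 it was 0.336 with all 3 lines and 0.238 for replicates 1 and 3 alone.

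**Figure D1:**
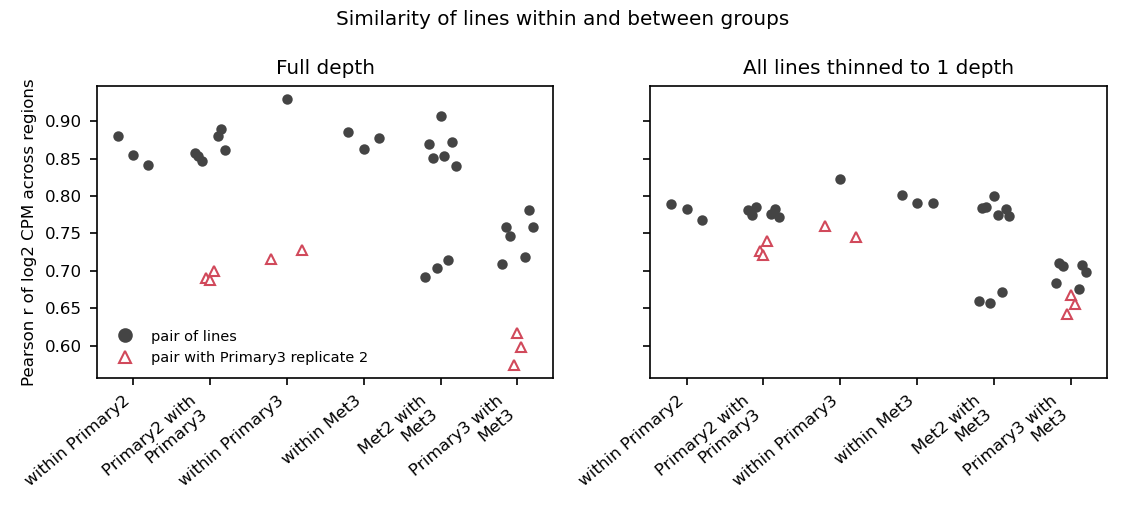
Pearson correlation of log2 CPM across 39952 tested regions (vertical axis) for each pair of lines, by group of the pair, at full depth (left) and after thinning every line to 283950 counts (right); triangles mark pairs with Primary3 replicate 2. Pairs of Primary2 with Primary3 lines other than replicate 2 overlap the pairs within Primary2, and pairs of Primary3 with Met3 lie lower at the common depth.

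No single region was distinguished between the rounds in the model of all 15 lines. The edgeR quasi-likelihood test called 0 of 39952 regions (0%) at a Benjamini-Hochberg adjusted p under 0.05, with a smallest adjusted p of 0.244. At an unadjusted p under 0.05 stood 2646 regions (6.62%), 1427 with higher signal in Primary3 (3.57%) and 1219 with lower signal (3.05%). With other tools, DESeq2 called 54 of the 19808 regions it gave an adjusted p (0.273%), and limma with weights for library quality called 127, 97 higher and 30 lower. Without Primary3 replicate 2 the edgeR count stayed at 0 (2655 regions at an unadjusted p under 0.05). Without Primary2 replicate 3 it was 7, 2 higher and 5 lower. At regions with at least median signal the median size of the log2 fold change was 0.25, below its median standard error of 0.36, and 3.46% of these regions differed by more than 1 on the log2 scale. Groups did not overlap, with every Primary3 line above every Primary2 line, at 2817 regions (7.05%), and with every one below at 3500 (8.76%). Among the 3996 regions with the least signal, 131 lay apart with higher and 406 with lower signal. Among the 3996 with the most signal these counts were 593 and 181. Primary3 replicate 2 had a median of 0 and 24 counts in these classes, and the regions lying apart were not counted without it.

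The direction of the difference moved with the strength of the region. Among the 3996 regions with the least signal the median log2 fold change was -0.24, and 87 regions had higher and 124 lower signal in Primary3 at an unadjusted p under 0.05. In the 3996 with the most signal the median was 0.08, with 286 higher and 48 lower. Primary3 replicate 2 had a median of 0 counts in the former and 24 in the latter. By the peak score of the deposited table, the authors' own value, the 9988 regions with the lowest scores held 135 higher and 391 lower regions, and the 9988 with the highest scores 597 higher and 190 lower. With a trend on mean signal removed from each library, 1690 regions were higher and 1036 lower at an unadjusted p under 0.05, and without Primary3 replicate 3 the order turned, with 1250 higher and 1787 lower. Which direction held more regions thus turned with 1 library.

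**Figure D2:**
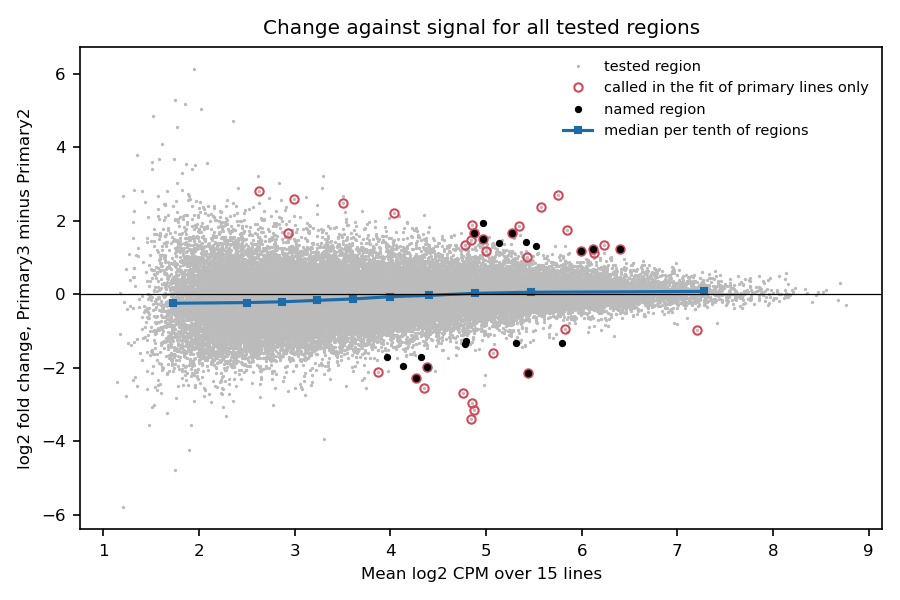
Log2 fold change of Primary3 minus Primary2 in the fit of all lines (vertical axis) against mean log2 CPM over 15 lines (horizontal axis) for 39952 tested regions, with named regions (black), regions called in the fit of primary lines only (open circles) and medians of 10 equal classes of regions by signal (squares). The median runs from -0.24 at the weakest regions to 0.08 at the strongest.

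The regions named below are those with the smallest p in each direction among regions of at least median signal at which the Primary2 and Primary3 lines did not overlap. Of the regions at or above the median, 1992 of 19976 (9.97%) lay apart with higher and 1390 (6.96%) with lower signal in Primary3. They were picked by this contrast, so their fold changes describe the most extreme regions and none passed adjustment in edgeR's fit of all lines (adjusted p 0.244 to 0.340). The 10 regions with higher signal in Primary3 differed by 2.26-fold to 3.84-fold. Peak_87964 (chromosome 7, 25179408 to 25180310) held 46.9, 43.8 and 81.5 CPM in Primary2 replicates 1, 2 and 3 and 133, 140.2 and 133 CPM in Primary3 replicates 1, 2 and 3. The 3 Primary3 lines lay close together, and Primary2 replicate 3 lay between them and the other Primary2 lines. The group means were 135 ± 4.22 and 57.4 ± 20.9 CPM (SD, n = 3). On the log2 scale the fitted difference was 1.25 ± 0.24 (SE), with an adjusted p of 0.244 in edgeR.

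At several of the other higher regions the rounds lay well apart, which the choice of regions favours. Peak_85135 (chromosome 6, 116287666 to 116288547) stood at 14.5, 15.9 and 19.4 CPM in Primary2 against 48.95, 44.6 and 38.5 CPM in Primary3, listed by replicate number, and peak_52224 (chromosome 2, 29921488 to 29922291) at 13.9, 16.96 and 10.5 CPM in Primary2 against 50.4, 38.2 and 42.1 CPM in Primary3. Their log2 fold changes were 1.41 ± 0.28 and 1.67 ± 0.34. At peak_89071 (chromosome 7, 51043455 to 51043955) the values were 19.1, 16.4 and 16.1 CPM in Primary2 against 51.8, 35.05 and 53.5 CPM in Primary3. In these 3 regions every Primary3 line was at least at 35.05 CPM and no Primary2 line exceeded 19.4 CPM. Peak_63527 (chromosome 3, 146162324 to 146163773) stood at 24.9, 15.9 and 22.6 CPM in Primary2 against 63.6, 57.3 and 45.4 CPM in Primary3. Peak_66877 (chromosome 4, 117688289 to 117690102) was less even in the second round, with 33.6, 15.3 and 51.6 CPM in Primary2 against 115, 112 and 92.3 CPM in Primary3, and its log2 fold change of 1.68 ± 0.35 was 1.32 without Primary2 replicate 2 and 2.12 without replicate 3.

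The remaining 4 of the 10 higher regions lay on chromosome 8. Peak_94422 (chromosome 8, 9072225 to 9072964) had the largest fold change of the 10, with 15.6, 8.21 and 10.5 CPM in Primary2 against 36.7, 76.5 and 33.9 CPM in Primary3. Its Primary3 mean leaned on replicate 2, the shallow line with 24 counts there, and the log2 fold change of 1.94 ± 0.40 was 1.63 without that line. Peak_95491 (chromosome 8, 27229083 to 27230417) and peak_95487 (chromosome 8, 27125515 to 27126398) held 60.2, 41.6 and 46.8 CPM in Primary2 against 131, 134 and 93.03 CPM in Primary3 and 31.3, 19.7 and 37.9 CPM in Primary2 against 77.98, 82.8 and 62.9 CPM in Primary3. At each, the lowest Primary3 value was that of replicate 3. Peak_95908 (chromosome 8, 37311041 to 37312883) held 47.5, 45.95 and 37.9 CPM in Primary2 against 93.01, 134 and 83.6 CPM in Primary3. With each library's chromosome medians removed, the log2 fold changes of these 4 regions were 1.78, 1.10, 1.18 and 1.02. The regions were picked for large differences, and a median per chromosome does not remove shifts of parts of it. Whether such shifts contribute was not tested.

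The 10 regions with lower signal in Primary3 differed by 2.42-fold to 4.85-fold. Peak_84202 (chromosome 6, 96537273 to 96538243), with the smallest p, held 40.5, 57.4 and 17.7 CPM in Primary2 replicates 1, 2 and 3 and 8.04, 6.37 and 9.80 CPM in Primary3 replicates 1, 2 and 3. The Primary3 lines were uniformly low, while Primary2 replicate 3 was the lowest of its group. The fitted difference was -2.15 ± 0.41 on the log2 scale (SE, n = 3 per group), with an adjusted p of 0.244 in edgeR, and all 9 metastasis lines lay at 40.5 to 102 CPM. The shallow line had at most 4 counts at each of the 10 regions and 0 at peak_16973 and peak_45666.

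Among the 3 named regions of chromosome 11 are peak_13170 (chromosome 11, 63735354 to 63736172) and peak_13173 (chromosome 11, 63770353 to 63771217). They stood at 34.8, 52.5 and 20.97 CPM in Primary2 against 6.99, 6.37 and 8.08 CPM in Primary3, and at 30.1, 20.8 and 45.2 CPM in Primary2 against 8.39, 6.37 and 8.08 CPM in Primary3. Their log2 fold changes were -2.28 ± 0.50 and -1.98 ± 0.44. Primary3 replicates 1 and 3 were close to each other at both regions, whereas the order of the Primary2 lines differed between them. Primary3 replicate 2 held only 2 counts at each, too few to place it. A further region of chromosome 11, peak_16973 (chromosome 11, 113528076 to 113529110), held 22.01, 31.2 and 40.3 CPM in Primary2 against 9.44, 0 and 8.94 CPM in Primary3.

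A pair on chromosome 5, peak_71914 (chromosome 5, 32372916 to 32374606) and peak_71899 (chromosome 5, 32269192 to 32270865), stood at 107, 68.9 and 58.9 CPM in Primary2 against 37.4, 12.7 and 33.5 CPM in Primary3, and at 37.6, 30.6 and 33.9 CPM in Primary2 against 15.7, 6.37 and 14.96 CPM in Primary3. At peak_71899 the Primary2 lines were nearly equal. On chromosome 6, peak_84157 (chromosome 6, 94838803 to 94840183) held 22.6, 43.2 and 58.9 CPM in Primary2 against 10.1, 6.37 and 16.9 CPM in Primary3. Peak_28597 on chromosome 14 (57778813 to 57780867) held 63.7, 60.2 and 36.3 CPM in Primary2 against 18.2, 12.7 and 27.5 CPM in Primary3. On chromosome 18, peak_45666 (54603962 to 54604506) and peak_45907 (60820537 to 60821360) had log2 fold changes of -1.71 ± 0.41 and -1.34 ± 0.35. The Primary2 lines ranged from 13.7 to 27.4 and from 24.6 to 50.4 CPM, and no Primary3 line exceeded 8.60 and 16.9 CPM.

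The metastasis lines entered the choice of these regions through the mean signal over 15 lines and the shared fit, so their levels there are a description. At 8 of the 10 lower regions all 9 metastasis lines lay above all 3 Primary3 lines, which were the lowest of the series there. A region that is low in Primary3 reaches the median of the mean over 15 lines through its other lines, so the choice favours this. The share was 25.3% of the 1219 regions with lower signal at an unadjusted p under 0.05 and 3.60% of all tested regions. Peak_13170 and peak_84157 were the exceptions, with metastasis lines at 6.49 to 51.6 CPM and 5.59 to 25.1 CPM. Among the 10 higher regions, all metastasis lines lay below all Primary3 lines at 3, against 14.4% of the 1427 regions with higher signal at an unadjusted p under 0.05 and 3.89% of all tested regions. The mean of the metastasis lines fell between the 2 primary groups at 9 of the 10. It did so at 882 of the 1427 regions and at 10837 of the 39952 tested regions. The choice of regions with widely separated primary groups favours this. At the remaining region of the 10, peak_85135, the metastasis lines (45.4 to 71.7 CPM) lay above the Primary2 lines and overlapped the Primary3 lines.

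**Figure D3:**
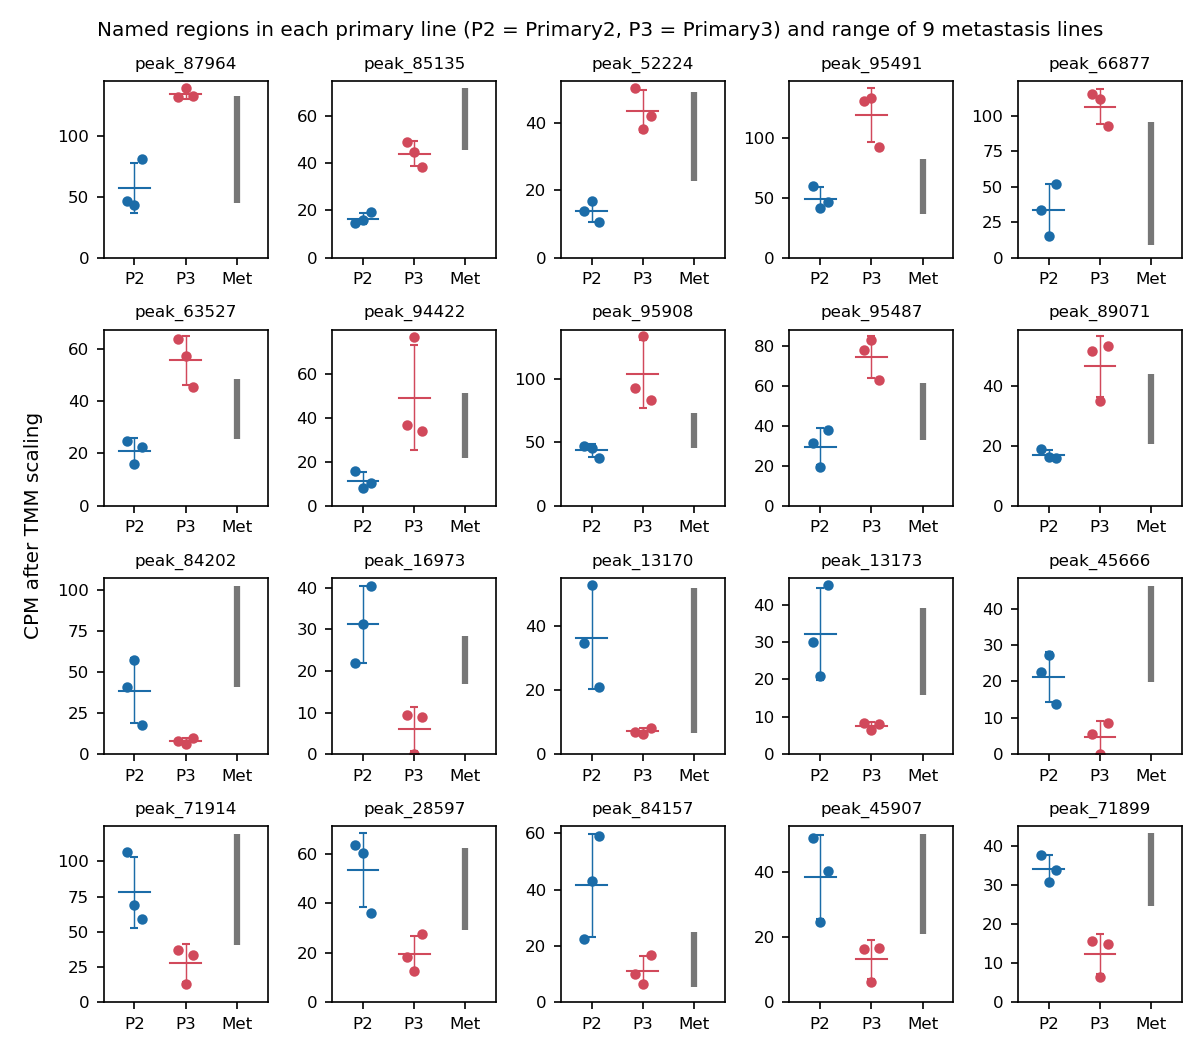
CPM after TMM scaling (vertical axes) at the 20 named regions in the 3 Primary2 (P2) and 3 Primary3 (P3) lines, each point 1 line, with mean and SD, and the range of the 9 metastasis lines as a grey bar. The upper 10 panels show regions with higher and the lower 10 with lower signal in Primary3; at 8 of the lower 10 the grey bar lies wholly above the Primary3 points.

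A model of only the 6 primary lines called 34 of 33422 regions (0.102%), 22 higher and 12 lower in Primary3, all of which had an unadjusted p under 0.05 in the fit of all lines. It takes the spread from the primary lines alone. The call with the smallest p, peak_90723 (chromosome 7, 89214916 to 89216516), held 18.5, 12.6 and 60.5 CPM in Primary2 against 221, 137 and 206 CPM in Primary3. Its fitted difference was 2.75 ± 0.33 on the log2 scale, with an adjusted p of 0.00091 in edgeR. Peak_90720 (chromosome 7, 89161970 to 89163766), on the same chromosome, held 10.4, 16.96 and 54.9 CPM in Primary2 against 149, 82.8 and 161 CPM in Primary3 (2.41 ± 0.35). At both, Primary2 replicate 3 stood between the other Primary2 lines and Primary3. In the fit of all lines their edgeR adjusted p was 0.265 and 0.366, and the metastasis lines there varied widely, from 7.46 to 137 CPM and from 4.48 to 146 CPM.

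Some of these 34 regions were higher in each third-round primary line than in any other line of the series. The 3 regions described next were singled out after their values were seen. Peak_103694 (chromosome 9, 71169316 to 71170094) held 4.05, 3.28 and 6.45 CPM in Primary2 against 27.97, 38.2 and 31.8 CPM in Primary3, while the 9 metastasis lines stood at 1.29 to 5.34 CPM. Peak_41587 (chromosome 17, 43466176 to 43467336) held 5.79, 2.74 and 12.9 CPM in Primary2 against 41.3, 44.6 and 39.2 CPM in Primary3, with metastasis lines at 1.33 to 10.2 CPM. At both, the 3 Primary3 lines lay close together and far above the other 12 lines. Peak_54064 (chromosome 2, 78878691 to 78879334) held 10.4, 12.6 and 17.7 CPM in Primary2 against 42.7, 47.8 and 40.4 CPM in Primary3, with metastasis lines at 0.699 to 5.66 CPM. The log2 fold changes of the 3 regions in the fit of primary lines were 2.80 ± 0.43, 2.59 ± 0.42 and 1.66 ± 0.33 (edgeR adjusted p = 0.0176, 0.022 and 0.0493). In the fit of all lines their edgeR adjusted p was 0.244, 0.265 and 0.337, and DESeq2 gave these regions no adjusted p. All metastasis lines lay below all Primary3 lines at 9 of the 22 higher calls (40.9%, against 3.89% of all tested regions) and above them at 5 of the 12 lower calls (41.7%, against 3.60%). The calls were made on the Primary3 values, so these shares are a description.

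Primary2 replicate 3 was the Primary2 line nearest to the Primary3 mean at 11 of the 12 lower and 13 of the 22 higher calls. Over all tested regions the share was 34.1%. With an unadjusted p under 0.05 in the fit of all lines, it was 39.6% where signal rose and 40.7% where it fell. At the named regions replicate 3 was nearest at 4 of 10 higher and 5 of 10 lower ones. The excess was thus smaller outside these calls, which were chosen on the same Primary2 and Primary3 values. On chromosome 5, peak_76651 (119434760 to 119435627), peak_76658 (119501969 to 119503138) and peak_76661 (119535436 to 119537368) lie close together. They held 70.7, 57.9 and 66.6 CPM in Primary2 replicate 1 and 66.7, 70.03 and 64.01 CPM in replicate 2. In Primary2 replicate 3 they held 8.87, 3.23 and 8.07 CPM, within the range that the Primary3 lines spanned over these regions, 3.10 to 15.9 CPM. These 3 regions were thus already low in 1 line of the second round. The largest fold change among the 34, at peak_59720 (chromosome 3, 35032351 to 35033072, 46.3, 55.3 and 6.45 CPM in Primary2 against 2.10, 15.9 and 2.92 CPM in Primary3), had the same form. At 30 of the 34 regions the groups did not overlap, and these 4 were the exceptions. Calling regions on the same values favours this. Of all tested regions, 7.05% lay apart with higher and 8.76% with lower signal in Primary3.

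The number of calls in the fit of primary lines rested on single lines. It was 0 without Primary2 replicate 1, 1 without Primary2 replicate 2, 1 without Primary3 replicate 1 and 16 without Primary3 replicate 3. It was 62 without Primary2 replicate 3 and 125 without Primary3 replicate 2, of which 24 and 31 were among the 34. DESeq2 on all lines called 43 regions higher and 11 lower, and 15 of its 54 calls were among the 34 (27.8% of its list and 44.1% of the other).

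Counts were also summed over clusters of neighbouring regions, joined across short gaps, which raises the counts behind each value in the shallow line. The edgeR fit of all lines called 0 of 8706 clusters (0%), with 655 (7.52%) at an unadjusted p under 0.05 and a smallest adjusted p of 0.223, and DESeq2 called 19. The groups lay apart at 1455 clusters (16.7%). The 3 regions of a cluster on chromosome 8 (9069339 to 9083075), which include peak_94422, together held 31.3, 17.5 and 24.2 CPM in Primary2 against 70.98, 140.2 and 72.9 CPM in Primary3, a log2 fold change of 1.86 ± 0.36, and all 3 had higher fitted values in Primary3. A cluster of 3 regions on chromosome 13 (32110763 to 32129150) held 20.9, 19.1 and 19.4 CPM in Primary2 against 42.7, 60.5 and 38.2 CPM in Primary3, again with all 3 fitted values higher. In the other 2 clusters named for higher signal, around peak_95908 and peak_63527, the neighbouring region had a fitted value in the opposite direction, so there the sum followed 1 region.

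In the 4 clusters named for lower signal every region had a lower fitted value in Primary3. The cluster around peak_84202 (chromosome 6, 96537273 to 96546165) held 49.8, 64.01 and 22.6 CPM in Primary2 against 9.44, 12.7 and 15.3 CPM in Primary3 (-1.86 ± 0.37). A pair of regions on chromosome 10 (119989526 to 119996338) held 81.1, 85.9 and 54.9 CPM in Primary2 against 23.8, 19.1 and 37.1 CPM in Primary3 (-1.36 ± 0.28), and a pair on chromosome 15 (101997915 to 102004436) held 43.4, 48.7 and 29.8 CPM in Primary2 against 15.7, 6.37 and 15.6 CPM in Primary3 (-1.50 ± 0.32). The fourth, around peak_45666 on chromosome 18, held 0 CPM in Primary3 replicate 2.

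The fit of primary lines called 7 of 8572 clusters (0.0817%), 6 higher and 1 lower. The call with the smallest p was a group of 6 regions on chromosome 7 (51035574 to 51063677) that includes peak_89071, with 77.6, 80.4 and 92.8 CPM in Primary2 against 203, 175 and 196 CPM in Primary3 (log2 fold change 1.22 ± 0.17, edgeR adjusted p = 0.0129). Both rounds were tight here, including the shallow line with 55 counts. A cluster on chromosome 9 (71150834 to 71170094) that includes peak_103694 held 39.96, 36.7 and 39.5 CPM in Primary2 against 97.2, 89.2 and 94.2 CPM in Primary3, and the metastasis lines stood at 6.07 to 35.1 CPM. A cluster on chromosome 8 (14607732 to 14616937) held 11.6, 12.6 and 8.87 CPM in Primary2 against 40.2, 47.8 and 56.1 CPM in Primary3. No cluster was called without Primary2 replicate 1, Primary2 replicate 2 or Primary3 replicate 1, and 1 was called without Primary3 replicate 3. Without Primary2 replicate 3 there were 62 calls, and without Primary3 replicate 2 there were 21.

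Whole chromosomes differed modestly between the rounds. For each line the median log2 signal of a chromosome's regions, relative to the mean of the 15 lines and to the line's own median over all regions, was compared between the groups. At 3 of 20 chromosomes (15%) the groups did not overlap. Chromosome 14 stood at 0.106, 0.132 and 0.04 in Primary2 and 0.017, -0.172 and -0.039 in Primary3, a difference of -0.16. It was lowest in the shallow line, and the difference was -0.10 without it. Chromosome 7 stood at 0.059, -0.137 and 0.057 in Primary2 and 0.128, 0.152 and 0.07 in Primary3, a difference of 0.12 that was 0.06 without the low Primary2 replicate 2. Chromosome 3 stood at 0.112, 0.159 and 0.113 in Primary2 and 0.044, -0.062 and 0.09 in Primary3, a difference of -0.10 that was -0.06 without Primary3 replicate 2. With 3 lines against 3 the 2-sided exact permutation test cannot go below 0.1, the value of each of these chromosomes (0.5 after adjustment over 20), so none can pass. Under random labels, groups of this size lie apart with a probability of 0.1 at each chromosome. Met3 and Met2 lines also lay apart on chromosomes 7, 9 and 17, and chromosome 7 was higher in Met3, by 0.04.

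Chromosomes were also split into windows of 10 Mb with at least 20 regions, of which 129 of 266 were higher and 137 lower in Primary3. All 12 windows of chromosome 14 were lower in Primary3, with differences from -0.40 to -0.01, and in 6 the groups did not overlap, against 9.02% of all 266 windows in the lower direction. Primary3 replicate 2, the shallow line, weighed on this. It stood at -0.78 in the window with the difference of -0.40. From 30000001 to 40000000 Primary3 replicates 1 and 3 stood at 0.10 and 0.01, against 0.06, -0.02 and -0.04 in Primary2. From 100000001 to 110000000 they stood at 0.11 and 0.01, against 0.04, 0.10 and -0.03 in Primary2. All 15 windows of chromosome 7 were higher, with differences from 0.01 to 0.21, and 6 lay apart, against 9.4% of windows in the higher direction. Primary2 replicate 2, low on this chromosome, weighed on this. From 70000001 to 80000000 it stood at -0.02 and the other Primary2 lines at 0.22 and 0.12, against 0.17, 0.14 and 0.14 in Primary3. From 150000001 to 160000000 it stood at 0.06 and the others at 0.28 and 0.29, against 0.13, 0.47 and 0.07. Directions of windows were not counted without single lines. On chromosome 3, 15 of 16 windows were lower and 6 lay apart. Windows in 1 direction were not particular to these chromosomes, with 9 of 9 lower on chromosome 18 (3 apart), 10 of 10 higher on 16 (1 apart), 15 of 16 lower on 5 (0 apart), 10 of 11 lower on 15 (1 apart) and 13 of 14 higher on 8 (3 apart). Counts summed per window and tested as for regions gave 0 calls among 275 windows (0%), with 14 (5.09%) at an unadjusted p under 0.05 in edgeR, 0 calls by DESeq2 and groups apart at 26 (9.45%). Scaling by total counts called 2, both higher. The 4 windows of smallest p with higher signal were on chromosomes 7, 8, 8 and 16, with log2 fold changes of 0.28 to 0.34. The 4 with lower signal were all on chromosome 14, from -0.37 to -0.22.

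Chromosomes 8 and 16 are described here because of their values, although their groups overlapped. Chromosome 8 stood at 0.034, 0.068 and 0.244 in Primary2 and 0.229, 0.26 and 0.282 in Primary3, so that 1 second-round line was already at the third-round level. Of its 1764 regions 125 (7.09%) had higher and 22 (1.25%) lower signal in Primary3 at an unadjusted p under 0.05, against 3.57% and 3.05% of all regions. It held 7 of the 22 higher calls of the primary-line fit and 15 of the 43 of DESeq2, with 4.42% of tested regions, and none of the lower calls of either. With chromosome medians removed from each library the primary-line fit called 67 regions, and 6 of its 48 higher calls were on chromosome 8. Windows there were unequal. From 1 to 10000000 the Primary3 lines stood at 0.26, 0.53 and 0.18 against -0.06, -0.01 and -0.09 in Primary2, and from 40000001 to 50000000 at 0.35, 0.40 and 0.37 against 0.04, 0.09 and 0.12. From 50000001 to 80000000 the groups overlapped in each window, and from 80000001 to 130000000 Primary2 replicate 3 reached the level of the Primary3 lines in each window, at 0.27 to 0.42. Chromosome 16 stood at -0.198, 0.085 and -0.095 in Primary2 and 0.078, 0.105 and 0.053 in Primary3, with 6.995% of regions higher and 2.40% lower.

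**Figure D4:**
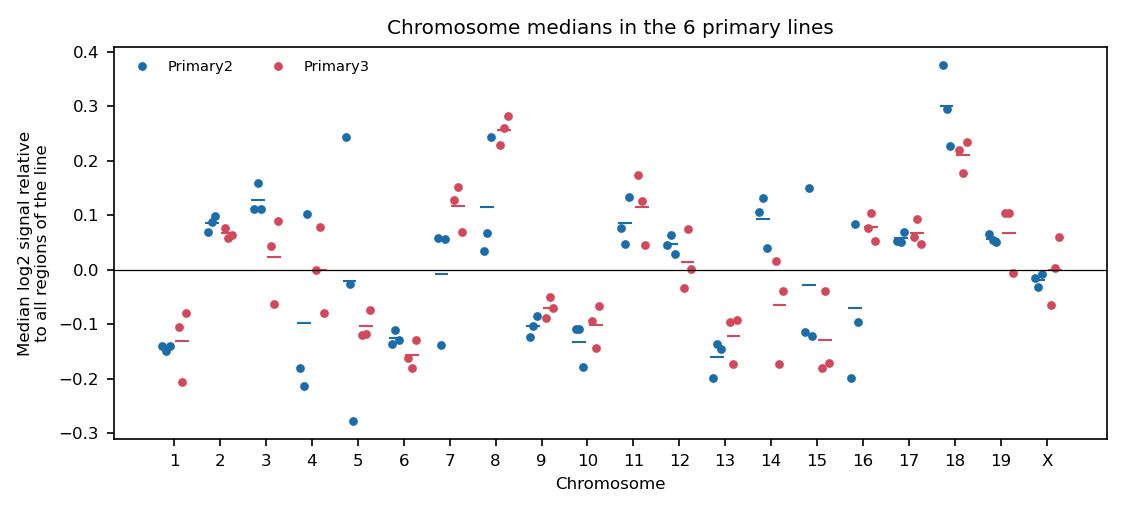
Median log2 signal of each chromosome's regions relative to all regions of the line (vertical axis) in the Primary2 (blue) and Primary3 (red) lines, each point 1 line and each dash a group mean. The groups do not overlap on chromosomes 3, 7 and 14, and on chromosome 8 Primary2 replicate 3 (0.244) lies among the Primary3 lines.

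**Figure D5:**
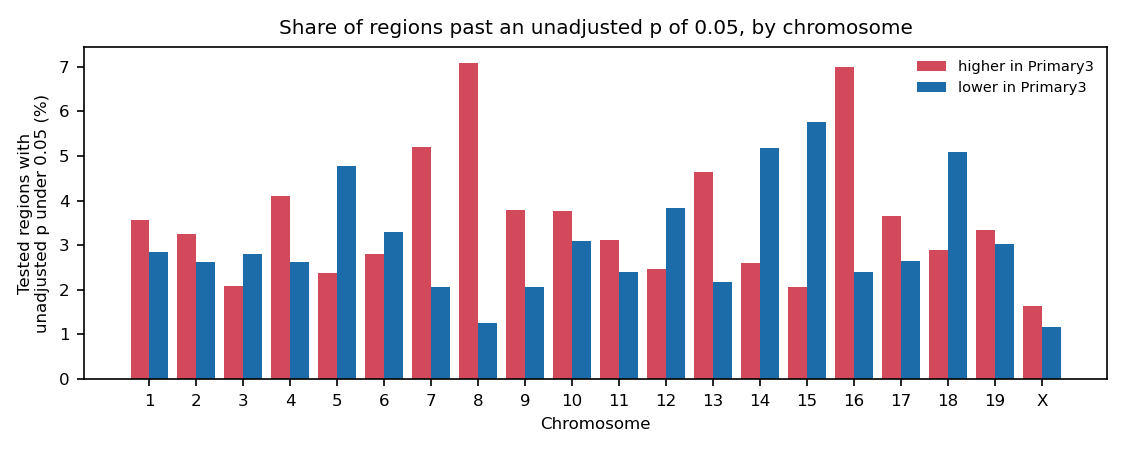
Percent of each chromosome's tested regions with an unadjusted p under 0.05 and higher (red) or lower (blue) signal in Primary3, from the edgeR fit of all lines. Chromosome 8 has 7.09% higher and 1.25% lower, and chromosome 15 has 2.07% higher and 5.76% lower.

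Chromosome Y has 2 regions in the table, at 586485 to 587187 and 2130462 to 2131058. The Primary2 lines held 18, 22 and 11 counts there, or 10.4, 12.1 and 8.90 CPM without TMM scaling. Primary3 replicate 3 held 54 counts, or 9.13 CPM, whereas replicate 1 held 3 of 3051139 counts, or 0.983 CPM (exact 95% interval 0.203 to 2.87), below the intervals of the Primary2 lines. All 3 of its counts were in the second region. Replicate 2 held 0 of 285633, where 3 counts would be 10.5 CPM and the exact interval reaches 12.9 CPM, so a level like that of Primary2 could not be told from none at this depth. The intervals cover counting error only.

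The step from round 2 to round 3 in primary lines was set beside the same step in metastasis lines, which shares no library with it. Fitted sizes were alike, with a median absolute log2 fold change of 0.25 in both over regions with at least median signal (3.46% and 3.35% beyond 1). Both lay below their median standard errors, 0.36 in primary and 0.35 in metastasis lines. A step of median size could therefore not be told from the spread between lines. Met3 against Met2 gave 0 calls in edgeR (0%) and 2926 regions (7.32%) at an unadjusted p under 0.05. The fitted steps were nearly uncorrelated. Error of this size in both steps lowers a correlation, so it cannot show whether the steps shared a direction. Across 39952 regions, which are not independent and share the genome and its copy number, r was 0.06 and Spearman's rho 0.04, and 51.7% of regions had the same sign. The test of the difference between the steps called 0 regions in edgeR (0%), with 2568 (6.43%) at an unadjusted p under 0.05, 15 in DESeq2 and 1 in limma with quality weights. At the 20 named regions, chosen for the primary step, 1 had an unadjusted p under 0.05 between Met3 and Met2. It was peak_66877, with means of 69.6 CPM in Met2 and 29.7 CPM in Met3, opposite to its direction in primary lines.

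Regions that changed along the metastasis series were looked up in the primary lines. The 2389 regions called higher in Met3 than in Met1 (edgeR, all lines) had a median log2 fold change of 0.08 between Primary3 and Primary2, and the 1424 called lower had -0.14, where all tested regions had -0.05. Of the higher ones 56.4% had a positive value in primary lines, against 45.9% of all regions, and 9.38% an unadjusted p under 0.05, against 6.62%. For the 1054 regions higher in Met2 than in Met1 the median was 0.15 and the share positive 63.3%, and for the 363 lower ones -0.13 and 41.0%. The medians leaned the same way in both origins. The median also moved with signal strength, whose part here was not tested.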

How the data were processed

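Chromatin accessibility was measured in 15 organoid lines. Per the labels' protocols, dissociated cells were treated with the TDE1 enzyme and libraries were sequenced in paired-end mode. The authors deposited 1 table of unnormalized counts in 43020 regions, whose names say that peaks were called on all samples together. Named in the submitters' processing notes, without roles or versions, are MACS2, bedtools, Picard, Bowtie and SAMtools, with the mm9 build. Read shifting for the transposase and duplicate removal were not given in the sources used here.

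Groups and replicate numbers came from the sample titles. Counts were tested with edgeR 4.0.16 (R 4.3.3, limma 3.58.1): filterByExpr (minimum count 10, total 15) kept 39952 regions, libraries were scaled by TMM, and a robust quasi-likelihood model with 5 group means was fitted, with Benjamini-Hochberg adjustment over all tested regions. Clusters of at least 2 regions and 10 Mb windows used the same library sizes. Chromosome medians and correlations used log2 CPM with a prior count of 2. DESeq2 1.42.0, limma with quality weights, other scalings and filters, the 6 primary lines alone, and omission of each primary line were alternatives. The fits were tested on simulated counts with changes set at regions above median signal. Apart from these changes all lines shared the same mean at a region, and the spread was that of the 15 lines together. The primary lines' own spread was not simulated, so the recovered and false numbers hold only for the simulated spread. The fit of all lines recovered 10 of 100 changes of 2-fold and 80 of 100 of 4-fold. The fit of primary lines recovered 9 and 81. Of their 93 and 97 calls, 3 and 7 were false. A count of 0 calls therefore does not exclude differences of 2-fold. Same-numbered Primary2 and Primary3 lines did not deviate together (r = 0.03, -0.05 and -0.11), so the numbers were not treated as pairs.

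Regions were named by rule: at least median mean log2 CPM, groups not overlapping, and the 10 smallest p in each direction. Clusters were named by the 4 smallest p in each direction, likewise windows. The comparison, lists and tests were chosen with earlier results of these data known. Further software was Python 3.11.15, numpy 2.4.6, pandas 2.3.3 and matplotlib 3.10.9.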

Additional observations from a re-analysis of the deposited data

How the results depend on the processing

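The region count of 0 in the fit of all lines stayed at 0 with DESeq2 size factors, total counts, no filter, a stricter filter, chromosome medians or a signal trend removed, and the replicate number as a block. It became 54 with DESeq2's test, 34 with primary lines only, 13 with the replicate block in primary lines only, 127 with limma and quality weights (chosen after seeing the data, like the further settings of the primary-line fit), and 0 to 7 when 1 line was left out. The difference between the primary and metastasis steps gave 15 calls with DESeq2, 1 with limma and quality weights, and 0 to 1 with a line left out. The 34 calls of the primary-line fit became 152 without a filter, 106 with DESeq2, 13 with the replicate block (12 of them among the 34) and 67 with chromosome medians removed, and ran from 0 to 125 with a line left out. Clusters went from 0 to 19 with DESeq2 and to 7 with primary lines only, and to 0 to 3 with a line left out. The 7 cluster calls of the primary-line fit ran from 0 to 62. Windows went from 0 to 2 with total counts and to 1 at 5 Mb. Chromosomes whose groups lay apart went from 3 to 5 by share of counts, to 5 with only regions above median signal, and from 4 to 8 with a line left out, where smaller groups lie apart more easily. For the other changes the cause was not tested. The 20 named regions kept their direction in 340 of 340 alternative values, and 43 of these passed the threshold. They were picked in the same data, so this says little about other regions. Depth limits Primary3 replicate 2 most: at 3.19 CPM per count, losses at weak regions were not detectable in it.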
